A study of Mus musculus with 180 samples.

Results

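Accessible regions that differed between ESCs of the 2 parental mouse strains, and that were as open in the F1 hybrid as in the more open parent, were collected from ATAC-seq (a transposase cuts and tags DNA that nucleosomes leave exposed). A region was taken when it lay on an autosome, when the parental means of the deposited log2 values differed by more than 1, when no line of one strain overlapped the lines of the other, and when the more open parent had a mean of at least 1 CPM (counts per 1000000 reads in regions). Its F1 mean on the linear scale also had to lie at 0.85 or more of the way from the less open parent (position 0) to the more open parent (position 1). This selected 1018 regions, out of 18894 autosomal regions that met the parental criteria and 241241 regions measured in all. Of the 18894 regions, 2348 lay at a position of 0.15 or less and are called closed in the F1, and 15528 lay between and are called intermediate. The members were selected on accessibility in the B6, D2 and F1 ESC lines, so those values are a description and were not tested.

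An F1 hybrid carries 1 chromosome set from each inbred parent in the same nucleus. Where a strain difference comes from the DNA of the region itself, each copy is expected to keep its own state, and the F1 lies near the middle of the parents. Where it comes from a factor made elsewhere in the genome, that factor reaches both copies, and the F1 can match 1 parent. Enhancers of ESCs are bound by POU5F1 (OCT4), a transcription factor that maintains pluripotency and reads the octamer motif, and by P300, an acetyltransferase found at active enhancers. TRIM28 is a co-repressor recruited by KRAB zinc finger proteins, chiefly to transposable elements.

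The groups used here were ESCs kept under naive conditions: 3 lines of C57BL/6J (B6: B41, B44, B51), 3 of DBA/2J (D2: D29, D55, DAC203), 3 of B6D2F1/J (F1: F116, F117, F124), and 33 BXD lines. BXD strains are recombinant inbred strains bred from B6 and D2, so at most loci a BXD line carries the B6 or the D2 allele on both chromosomes. Epiblast-like cells (EpiLCs), the state that ESCs enter on leaving naive pluripotency, were made from the parental and BXD lines. Each library was 1 line; ATAC used 100000 cells, RNA 1000000 and ChIP 10000000. ATAC, RNA and TRIM28 used all 3 lines of a strain, and P300 and POU5F1 used B41 and B51 for B6 and D29 and D55 for D2. Because assays share lines, p-values cover the spread among these lines and say nothing of other lines of the strain. A lower ATAC signal cannot be told apart from fewer cells in which the region is open.

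Reads in regions came to 19300000 to 27500000 per B6 library, 20300000 to 21900000 per D2 library, 18500000 to 22000000 per F1 library and 9910000 to 21700000 per BXD library. Summed RNA signal of 8 naive ESC markers (among them Pou5f1, Sox2, Nanog and Esrrb) ran from 6344 to 6854 in B6, 5776 to 6108 in D2 and 5907 to 6767 in F1 libraries. All 8 feeder fibroblast markers were present as well, at sums of 847 to 1131 in B6, 971 to 1317 in D2 and 1198 to 1274 in F1. Of 7 trophectoderm markers 6 were in the table, at 59.7 to 91.6 in B6, 34.0 to 52.0 in D2 and 44.9 to 55.7 in F1. Of 7 primitive endoderm markers 3 were in the table (12.6 to 18 over all 9 libraries), without Gata6, Sox17, Sox7 and Cubn, and of 6 two-cell-like markers 4 were. Their sum was 6.55 to 15 in B6, 5.16 to 6.8 in the F1 and 6.46, 14.2 and 51.2 in D2, where DAC203 was the highest. The part of such cells in the accessibility differences was not tested.

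The sequences below are examples of what lay under members with POU5F1 regions; no count rests on them. They are the central 300 bases, plus strand, of the mm10 reference, which is the B6 genome. Capitals mark the octamer ATGCAAAT on either strand. The chosen regions are the 5 members that held the octamer and whose POU5F1 signal passed the strain test in the direction of accessibility. The member with both a P300 and a POU5F1 region and the largest parental difference in each direction follows them. A match describes the letters and does not show a bound site.

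The only octamer member of the 5 that was more open in D2 and F1 was chr14:68115756-68117659. It overlapped an exon and Nefm, the gene of the medium neurofilament chain. The window had 1 forward match near its right end.

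chr14:68116558-68116857: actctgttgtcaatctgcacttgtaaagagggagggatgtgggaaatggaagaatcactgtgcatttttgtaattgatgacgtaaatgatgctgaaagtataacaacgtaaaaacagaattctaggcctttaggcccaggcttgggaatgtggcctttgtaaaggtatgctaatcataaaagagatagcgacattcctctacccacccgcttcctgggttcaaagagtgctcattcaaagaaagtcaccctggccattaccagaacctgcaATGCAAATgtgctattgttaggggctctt

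The other 4 octamer members were more open in B6 and F1. They lay in an intron of Ttc28 (chr5:111126703-111128928), 7.51 kb from the start of Slc45a1 (chr4:150659681-150660731), 9.48 kb from the pseudogene Rpl31-ps23 (chr8:35123079-35124049, with 2 octamers on opposite strands) and 4.85 kb from the start of Ldhb, a lactate dehydrogenase subunit (chr6:142512803-142513350).

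chr5:111127666-111127965: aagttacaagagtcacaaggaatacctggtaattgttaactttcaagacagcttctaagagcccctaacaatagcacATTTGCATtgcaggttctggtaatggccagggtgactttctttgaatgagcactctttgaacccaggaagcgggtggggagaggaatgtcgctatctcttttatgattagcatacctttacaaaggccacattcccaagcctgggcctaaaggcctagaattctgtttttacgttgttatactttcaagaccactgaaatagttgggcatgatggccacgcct

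chr4:150660057-150660356: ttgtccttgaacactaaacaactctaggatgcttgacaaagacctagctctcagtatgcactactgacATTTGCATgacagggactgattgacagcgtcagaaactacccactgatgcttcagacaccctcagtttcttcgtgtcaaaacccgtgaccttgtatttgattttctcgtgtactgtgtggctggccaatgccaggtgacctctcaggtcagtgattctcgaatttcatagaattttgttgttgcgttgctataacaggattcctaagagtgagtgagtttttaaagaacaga

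chr8:35123415-35123714: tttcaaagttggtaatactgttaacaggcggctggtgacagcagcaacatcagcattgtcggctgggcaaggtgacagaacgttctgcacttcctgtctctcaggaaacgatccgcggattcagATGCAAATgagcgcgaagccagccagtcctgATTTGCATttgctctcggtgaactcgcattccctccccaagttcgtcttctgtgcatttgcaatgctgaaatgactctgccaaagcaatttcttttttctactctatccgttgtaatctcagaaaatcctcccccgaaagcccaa

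chr6:142512927-142513226: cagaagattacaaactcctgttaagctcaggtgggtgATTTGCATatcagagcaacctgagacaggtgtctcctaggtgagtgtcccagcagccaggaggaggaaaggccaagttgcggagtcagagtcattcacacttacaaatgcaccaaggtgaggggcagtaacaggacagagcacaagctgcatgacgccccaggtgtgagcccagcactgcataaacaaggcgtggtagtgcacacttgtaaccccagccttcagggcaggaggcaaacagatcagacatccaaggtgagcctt

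The windows of the Nefm and Ttc28 regions are copies of each other. On opposite strands they aligned over 208 columns with 207 identical (99.5%), although one region was open in D2 and F1 and the other in B6 and F1.

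The members with P300 and POU5F1 and the largest parental difference held none of the motifs searched. They were chr2:40975393-40976567, in an intron of Lrp1b, a receptor of the LDL receptor family, open in D2 and F1, and the intergenic chr11:57552677-57554816, open in B6 and F1.

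chr2:40975831-40976130: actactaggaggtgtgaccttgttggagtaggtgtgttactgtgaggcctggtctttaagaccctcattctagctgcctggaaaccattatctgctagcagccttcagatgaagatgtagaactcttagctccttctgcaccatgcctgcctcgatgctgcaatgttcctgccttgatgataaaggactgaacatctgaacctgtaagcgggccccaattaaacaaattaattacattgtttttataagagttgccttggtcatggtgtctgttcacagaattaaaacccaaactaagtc

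chr11:57553597-57553896: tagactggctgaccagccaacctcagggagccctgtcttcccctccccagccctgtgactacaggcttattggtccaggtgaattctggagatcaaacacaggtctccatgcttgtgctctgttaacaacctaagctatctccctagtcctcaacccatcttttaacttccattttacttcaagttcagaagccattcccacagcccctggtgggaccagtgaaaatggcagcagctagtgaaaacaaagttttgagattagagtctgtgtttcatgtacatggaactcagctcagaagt

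The motifs were searched on both strands in the central 300 bases of every region. They were the octamer ATGCAAAT, TCAAGGTCA (ESRRB), ACAATGG (SOX), GGGNGTGGC (KLF) and TGANTCA (AP-1). Matches of different motifs may share bases and were counted separately. The octamer stood in 2.85% of the members and 3.23% of all autosomal regions, the SOX motif in 8.84% and 6.16%, the AP-1 motif in 9.53% and 13.2%, the KLF motif in 2.95% and 5.24%, and the ESRRB motif in 0.589% and 1.4%. Any of them stood in 22.6% of the members and 26.8% of all regions.

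Of the 1018 members, 619 were more open in D2 and 399 in B6. The D2 share of 60.8% compares with 44.6% of intermediate and 28.4% of closed regions. The share depended on line DAC203. With the selection repeated without it, 1239 regions were members and 50.8% were higher in D2. That was still above 42.8% of intermediate and 39.7% of closed regions. Members open in D2 then numbered 630 and those open in B6 609, of which 435 and 383 were among the 1018. The share thus fell mainly because more regions open in B6 became members. Leaving out any of the other 8 lines gave between 59.8% and 64.5%. DAC203 was also the library with the highest summed RNA of two-cell-like markers, and the part of that in the D2 share was not tested. The size of the lean towards D2 is therefore given as a property of these 3 D2 lines.

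**Figure D1:**
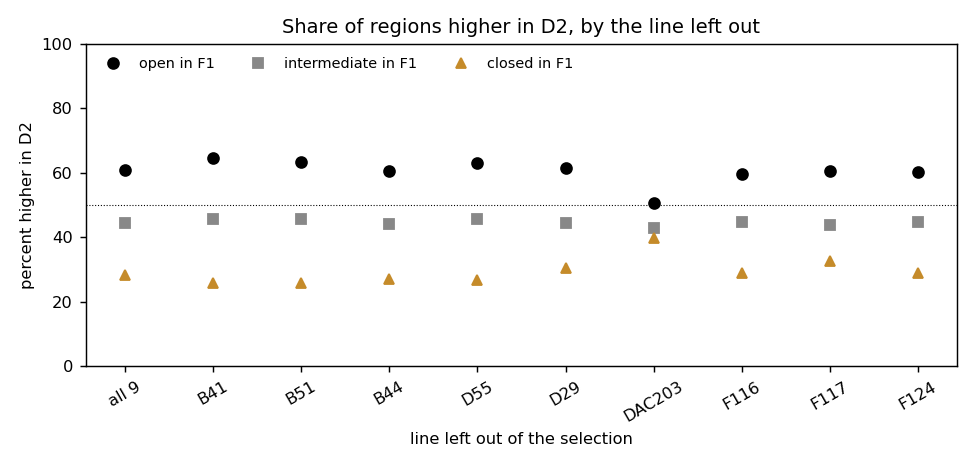
Share of regions more open in D2 (percent, vertical axis) with all 9 parental and F1 lines and with each line left out of the selection (horizontal axis), for regions open, intermediate and closed in the F1. The members run from 59.8% to 64.5% except without DAC203, where they fall to 50.8% and the 3 classes draw together.

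F1 positions of all 18894 regions formed a single broad peak with a median of 0.429, and the members are its upper tail. The median was 0.480 for regions higher in D2 and 0.391 for regions higher in B6. Regions just inside the threshold were chr8:31037424-31038087, chr9:32178106-32178497 and chr17:47720422-47720915, and those just outside were chr11:86779085-86780548, chr14:13639439-13640366 and chr16:18010630-18011893. All 6 had a position of 0.85 after rounding, so the threshold divides a continuum.

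**Figure D2:**
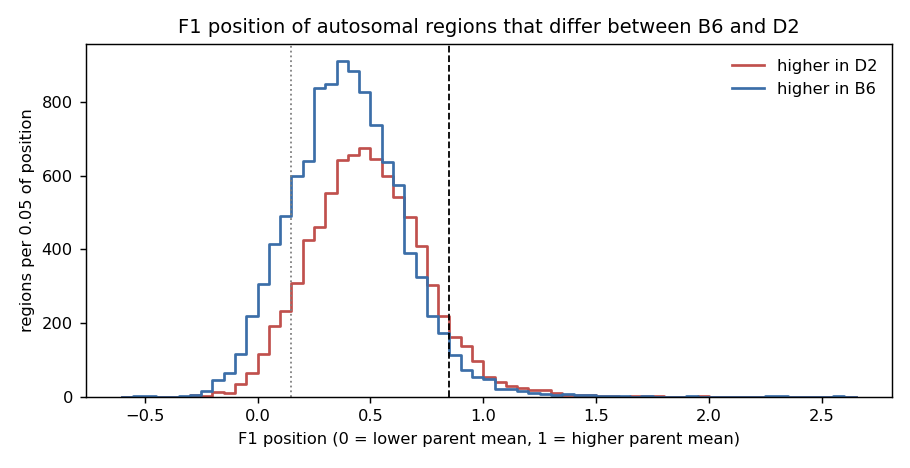
Number of autosomal regions per 0.05 of F1 position (vertical axis), where 0 is the mean of the less open parent and 1 that of the more open parent, for regions higher in D2 and in B6. Dashed and dotted lines mark 0.85 and 0.15; neither curve has a separate peak beyond 0.85, and 380 regions lie past 1.

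At single lines the members were less uniform than at the mean. All 3 F1 lines reached 0.85 in 364 of the 1018, and all 3 lay above every line of the less open parent in 1009. All 3 reached at least the lowest line of the more open parent in 480, and 44 had every F1 line above every line of that parent. The median SD of the 3 line positions was 0.195, beside 0.130 in intermediate regions. The median member had 49.0 reads per F1 library, 54.0 per library of the more open parent and 19 per library of the less open parent.

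To describe how the position carried over between F1 lines, members were chosen on 2 F1 lines and the third was read. The parental means stayed the same, so the third line shares their error with the choice and its values are no test. In F124 the 1119 regions so chosen had a median position of 0.883, and 55% reached 0.85. In F116 the 1032 regions had a median of 0.913, with 57.2% reaching 0.85. In F117 the 1308 regions had a median of 0.793, with 42% reaching 0.85. Intermediate regions chosen the same way had medians of 0.424 to 0.464 in the line left out, and 4.59% to 7.28% of them reached 0.85. Between 85.9% and 90.5% of the chosen regions stayed above the midpoint of the parents in the line left out.

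Parental differences at the members were mostly moderate. The median absolute log2 difference was 1.24 (1.20 where D2 was higher and 1.31 where B6 was). It passed 2 at 91 members (8.94%), beside 19.1% of intermediate regions. Of the 91, 63 were higher in B6 and 28 in D2, or 15.8% and 4.52% of the members in each direction. Intermediate regions leaned the same way, with 23.9% and 13.3%. The more open parent had a median of 2.45 CPM. The share of regions that were members did not follow the same course with level in the 2 directions. Among regions higher in D2 it was 8.03% at 1 to 2 CPM and 4.66% (11 of 236) at 16 CPM or more. Among regions higher in B6 it was 3.75% and 7.41% (18 of 243) at the same levels.

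Among the members, the largest differences were at regions open in B6 and F1. At chr4:112159398-112161519, in an intron of Skint4, a gene of an immunoglobulin-like family, the B6 lines B41, B51 and B44 had 9.14, 9.22 and 10.9 CPM. The D2 lines D55, D29 and DAC203 had 0.472, 0.312 and 0.598 CPM, and the F1 lines F116, F117 and F124 had 8.89, 10.3 and 9.23 CPM. The F1 lines thus overlapped the B6 lines and lay far from D2, at a parental log2 difference of -4.45 and a position of 0.97.

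Chr2:177329271-177330671, 4.96 kb from the start of Gm14412, had 16.2, 15 and 16.3 CPM in B6, 0.472, 0.848 and 1.12 CPM in D2 and 14.4, 13 and 13.7 CPM in the F1. All 3 F1 lines were below all 3 B6 lines there, at a position of 0.86. At chr12:19964559-19966014, near Gm48645, the F1 lines (5.05, 5.32 and 4.33 CPM) were all above the B6 lines (2.91, 3.92 and 3.38 CPM), and D2 had 0.206, 0.117 and 0.380 CPM. At 0.117 CPM a library had 0 reads, so the log2 differences against such lines depend on the constant that the authors added.

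Lines with 0 reads also occurred at chr17:37824098-37824543, near Olfr125, where the D2 lines had 0, 0 and 1 reads, B6 had 46, 69 and 46 and the F1 had 39, 38 and 51. Chr14:50964238-50964901 overlapped an exon and lay 8.25 kb from the start of Pnp2. It overlapped Pnp, the purine nucleoside phosphorylase of purine salvage, and the gene of the exon was not determined. There the D2 lines had 0, 0 and 2 reads, B6 had 40, 63 and 48 and the F1 had 42, 41 and 50. In both regions the F1 lines overlapped the B6 lines.

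Of the regions open in D2 and F1, chr4:88771912-88772179, 0.128 kb from the start of Gm10581, had the largest log2 difference (3.5). D2 had 1.85, 1.73 and 1.91 CPM in D55, D29 and DAC203, B6 had 0.117, 0.222 and 0.162 CPM in B41, B51 and B44, and the F1 had 1.90, 1.65 and 1.61 CPM in F116, F117 and F124. These were 33 to 41 reads in each D2 or F1 library and 0 to 3 in each B6 library.

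Chr14:119514622-119515118, in an intron of Hs6st3, a heparan sulfate sulfotransferase, had 1.63, 1.58 and 2.65 CPM in D2, 0.219, 0.257 and 0.207 CPM in B6 and 1.90, 1.65 and 1.75 CPM in the F1. Chr4:12236715-12237325, near Gm11847, had 1.80, 1.43 and 1.12 CPM in D2, 0.168, 0.257 and 0.207 CPM in B6 and 1.20, 1.93 and 1.61 CPM in the F1. In each of these the D2 and F1 lines overlapped. At the Hs6st3 intron DAC203 was the highest D2 line, and at chr4:12236715-12237325 it was the lowest.

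**Figure D3:**
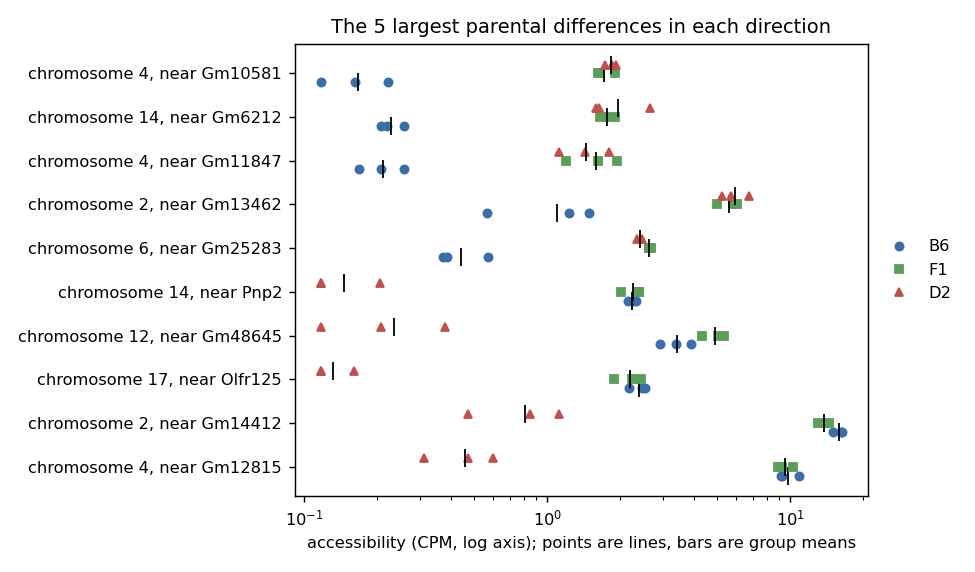
Accessibility in CPM (log axis) of each B6, F1 and D2 line at the 5 members with the largest parental difference in each direction, named by chromosome and the gene with the nearest start. Vertical bars are group means; in all 10 the F1 lines sit with the more open parent, and values at the left edge are libraries with 0 reads.

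Members lay within genes more often than regions in general. Introns held 490 (48.1%), intergenic sequence 332 (32.6%), exons 128 (12.6%) and the 1 kb around transcription starts 68 (6.68%). All autosomal regions had 39.7%, 38.6%, 9.64% and 12.1%, intermediate regions 36.9%, 48.1%, 7.86% and 7.14%, and closed regions 32.8%, 57.4%, 4.05% and 5.79%. Exons held 93 of the 619 members open in D2 and 35 of the 399 open in B6. No test was made of shares between classes.

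Repeats (lower-case bases of the reference) covered at least 50% of the length in 17% of the members, 27.4% of intermediate and 40.3% of closed regions, and 16.6% of all regions. Near-copies were also rarer than in the other classes: 72 members (7.07%) shared at least 50 words of 31 bases with another region that differed between the strains, beside 14.6% of intermediate and 24.8% of closed regions. Among members, 22 of those open in D2 (3.55%) and 50 of those open in B6 (12.5%) had such a copy. The largest family of copies, of 739 regions, held 10 members and 27 closed regions, and the next, of 548 regions, held 0 members and 361 closed regions. The family of the Nefm and Ttc28 regions held 30 regions, of which 3 were members. Whether reads of near-identical copies were shared among them in mapping was not given in the sources used here.

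Members stood on all 19 autosomes, from 3.93% of the parental-criteria regions of chromosome 1 to 6.94% of those of chromosome 8. Chromosome 4 held the most, 98, of which 60 were open in B6. In bins of 2 Mb, 66 to 68 Mb of chromosome 13 held 14 members (9 open in D2) among 134 parental-criteria regions (10.4%). On chromosome 17, 6 to 8 Mb held 13 (11 open in D2) among 80 (16.2%). On chromosome 4, 146 to 148 Mb held 13, all open in B6, among 64 (20.3%). Of the 1018 members, 305 lay within 100 kb of another, and no such share was taken for the other classes.

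A P300 region overlapped 180 members (17.7%) and a POU5F1 region 198 (19.4%), close to the shares of all autosomal regions, 18.5% and 17.7%. Intermediate regions had 14.9% and 15.8%, and closed regions 8.39% and 9.16%. Both factors overlapped 130 members (12.8%), and neither P300, POU5F1 nor TRIM28 overlapped 577 (56.7%). POU5F1 overlapped 98 of the members open in B6 (24.6%) and 100 of those open in D2 (16.2%), and P300 17.8% and 17.6%. In intermediate regions these shares were 17.4% and 13.7% for POU5F1 and 12.7% and 17.5% for P300. With members chosen without DAC203, the shares were 19.4% for P300 and 21.1% for POU5F1. ChIP was made in parental ESCs, so no F1 value of these factors is described.

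Strain differences in P300 followed accessibility in sign. ChIP and EpiLC values are the deposited signal per region, scaled per library by the authors. Across all P300 regions 11.3% passed limma's test at an adjusted p under 0.05 in either direction, 6.17% higher in D2 and 5.16% higher in B6. Of the 180 members with P300, 82 passed in the direction of accessibility and 0 in the other, and 98 did not pass; 168 had the same sign. The median difference towards the open strain was 0.66 on the log2(value + 1) scale, and 40 of 109 members open in D2 and 42 of 71 open in B6 passed. Among intermediate regions 51% passed in the direction of accessibility, beside 45.6% of the members. By direction these were 46.2% where D2 was higher and 56.5% where B6 was, beside 36.7% and 59.2% of the members. With 2 lines a strain, these counts rested on single libraries: 45 members passed without B41 and 44 without B51.

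POU5F1 gave like counts. Over all POU5F1 regions 10.8% passed, 6.48% higher in D2 and 4.36% higher in B6. Of the 198 members with POU5F1, 110 (55.6%) passed in the direction of accessibility, beside 52.5% of intermediate regions. By direction, 62 of 100 open in D2 and 48 of 98 open in B6 passed, beside 63.8% and 45.4% of intermediate regions. The median difference at members was 0.73 towards the open strain. Without D29 the count was 63, and without D55 it was 62. Of 130 members with both factors, 61 passed for both. Members chosen without DAC203 gave 101 of 240 for P300 and 114 of 262 for POU5F1.

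POU5F1 had the sign of accessibility in 188 of the 198. A single member passed the test with POU5F1 higher in the less accessible strain, and it is named after its values were seen. At chr1:5108319-5111341, in an intron of Atp6v1h, a subunit of the vacuolar proton pump, accessibility was 48.4, 43.2 and 48.7 CPM in B6, 19.3, 21.8 and 19.4 CPM in D2 and 47.7, 43.5 and 44.8 CPM in the F1. POU5F1 signal was 7.59 and 10.7 in B6 against 28.3 and 24.7 in D2, a log2 difference of 1.45 (SE 0.241, limma adjusted p = 1.38e-07). TRIM28 was also higher in D2, 7.67 to 9.37 against 4.72 to 5.42 in B6 (0.72, SE 0.168, adjusted p = 5.14e-04). In EpiLCs accessibility was again higher in B6, at 37.6 to 42.9 against 18.1 to 20.1.

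At chr11:57552677-57554816 all assays pointed to B6. Accessibility was 27.7, 27.9 and 27.6 CPM in B6, 1.71, 1.43 and 2.91 CPM in D2 and 29.9, 27.9 and 28.9 CPM in the F1. POU5F1 signal was 49.5 and 51.5 in B6 against 13.5 and 17.3 in D2 (log2 difference -1.66, SE 0.185, limma adjusted p = 9.33e-17). P300 signal was 38.2 and 44.5 in B6 against 17.6 and 19.2 in D2 (-1.13, SE 0.199, adjusted p = 1.58e-05). No line of one strain overlapped the other in any of these.

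The Ttc28 copy, chr5:111126703-111128928, was more open in every F1 line (17.9, 17.4 and 18.6 CPM) than in B6 (12.8, 12.4 and 12.3 CPM), while D2 had 1.27, 1.63 and 1.69 CPM. POU5F1 was 16.6 and 14.7 in B6 against 1.85 and 5.11 in D2 (-1.99, SE 0.410, limma adjusted p = 5.39e-05). P300 was 15.1 and 18.8 in B6 against 4.45 and 4.05 in D2 (-1.77, SE 0.393, adjusted p = 7.85e-04), a call lost without B41 (0.196) or B51 (0.453). The Nefm copy had 9.09, 8.38 and 9.05 CPM in B6, 21.3, 21.4 and 18.8 CPM in D2 and 20, 18.6 and 20.2 CPM in the F1. Its POU5F1 signal was 12.7 and 11.5 in B6 against 48.6 and 52.8 in D2 (1.98, SE 0.194, adjusted p = 9.87e-22), the opposite direction to its copy.

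At chr15:74224923-74226617, intergenic and open in B6 and F1, P300 was 52.0 and 60.7 in B6 against 14 and 20 in D2 (-1.69, SE 0.197, limma adjusted p = 1.20e-10). POU5F1 there was 43.0 and 38.6 in B6 against 12.4 and 15 in D2. At chr16:91255704-91257545 POU5F1 was 19.5 and 16 in B6 against 5.81 and 7.66 in D2 (-1.28, SE 0.302, adjusted p = 6.42e-04). Its P300 difference of -1.98 (adjusted p = 0.00458) lost its call without B41 (0.417) or B51 (0.606).

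Of members open in D2 and F1 with both factors, chr13:66464715-66465140 lay in the chromosome 13 bin of 66 to 68 Mb. Its P300 was 54.3 and 48.6 in D2 against 12.9 and 9.09 in B6 (2.14, SE 0.211, limma adjusted p = 1.34e-13). POU5F1 there was 56.0 and 61.0 in D2 against 17.7 and 20 in B6. The intron of Drosha, the nuclear RNase that cuts primary microRNAs (chr15:12872442-12873527), had P300 of 17.4 and 27.8 in D2 against 8.25 and 6.82 in B6 (1.44, SE 0.291, adjusted p = 1.86e-04). Its accessibility was 4.86, 5.67 and 6.28 CPM in D2, 1.38, 1.65 and 1.06 CPM in B6 and 5.59, 5.46 and 4.92 CPM in the F1.

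The other D2 members with both factors had weaker support. At the Lrp1b intron (chr2:40975393-40976567) POU5F1 was 8.71 and 8.80 in D2 against 0.362 and 3.11 in B6 (2.04, SE 0.693, limma adjusted p = 0.0340), a call lost without B41 (0.0516), D29 (0.461) or D55 (0.603). P300 was 12.9 and 5.67 in D2 against 4.12 and 2.27 in B6, and did not pass (adjusted p = 0.198). At chr6:114491164-114491591, 32.6 kb from the start of the histamine receptor gene Hrh1, POU5F1 was 18.7 and 19 in D2 against 5.42 and 11.1 in B6 (1.17, adjusted p = 8.50e-04). That call was lost without B41 (0.0652), D29 (0.0948) or D55 (0.128), and P300 there differed by -0.09 (adjusted p = 0.894).

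The octamer stood in 5 of the 110 members with POU5F1 called towards the open strain (4.55%) and in 5 of the other 88, beside 3.69% of the 41427 autosomal regions with POU5F1. The SOX motif stood in 16 of the 110 (14.5%) and 8 of the 88, beside 5.72%. Most members with a POU5F1 difference thus held neither motif in this window of the B6 reference. The D2 sequence of these windows was not analysed here.

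**Figure D4:**
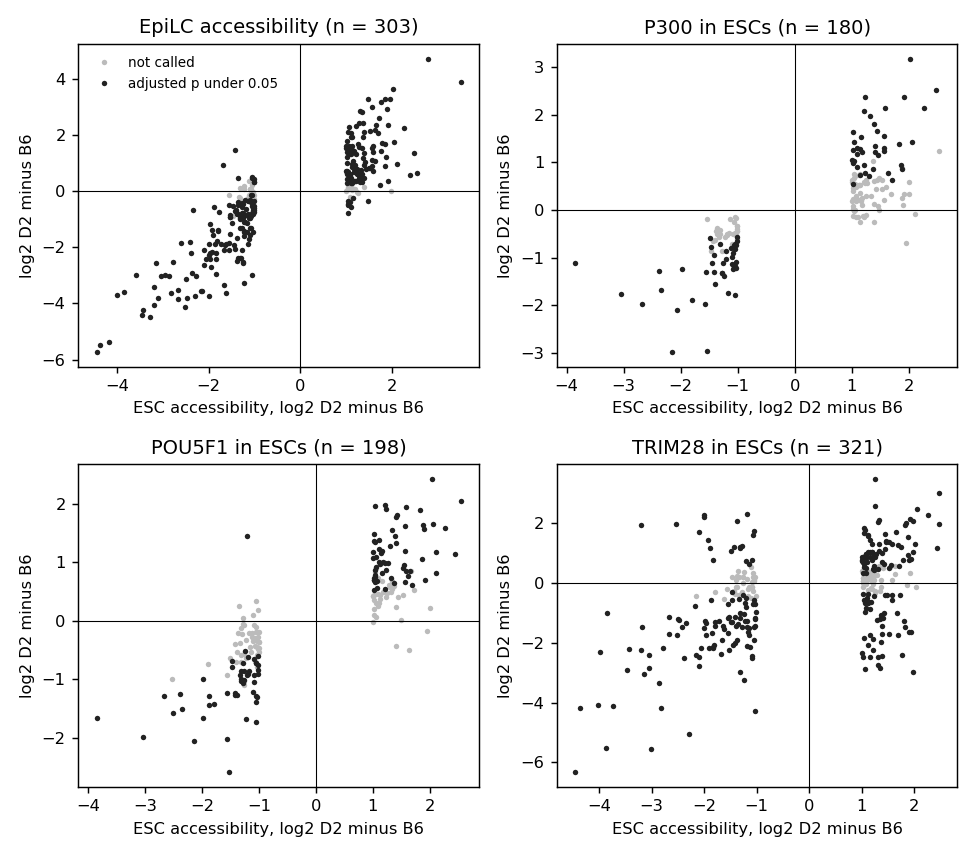
Strain difference (log2, D2 minus B6, vertical axes) in EpiLC accessibility, P300, POU5F1 and TRIM28 at the members, against the ESC accessibility difference that chose them (horizontal axes); black points passed the test. P300 and POU5F1 points lie almost wholly in the lower left and upper right parts, while 67 called TRIM28 points lie in the other parts.

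TRIM28 was the assay in which members split. A TRIM28 region overlapped 321 members (31.5%; all autosomal regions 32.6%, intermediate 38.3%, closed 46.5%). Over all TRIM28 regions 38.1% passed the strain test, 19.7% higher in D2 and 18.4% higher in B6. Of the 321, TRIM28 was higher in the more open strain in 167 and in the less open strain in 67, and 87 did not pass. Of 169 members open in D2 the counts were 72 and 47, and of 152 open in B6 they were 95 and 20. Intermediate regions gave 50% and 21.7%, beside 52.0% and 20.9% of the members, while closed regions gave 25.2% and 51.7%. D2 line D55 had 17100000 TRIM28 reads in regions and the other 5 libraries 5630000 to 6870000.

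The largest TRIM28 differences lay at members open in B6. At the Skint4 intron (chr4:112159398-112161519) TRIM28 signal was 26.7, 27.4 and 25.4 in B6 and 0.128, 0.236 and 0.376 in D2 (log2 difference -6.32, SE 0.263, limma adjusted p = 2.01e-22). At chr5:104732176-104732588 it was 8.45 to 11.9 in B6 and 0 to 0.376 in D2 (-5.54, SE 0.418, adjusted p = 2.13e-14). At chr12:20805369-20807943, near Gm28503, it was 32.7 to 36.4 in B6 and 0.128 to 1.30 in D2 (-5.52, SE 0.826, adjusted p = 0.00737). In all 3 the strain with the open region had the TRIM28 signal. D2 lines D55, D29 and DAC203 also had few ATAC reads: 8, 4 and 11 at the first, 0, 0 and 1 at the second and 27, 25 and 22 at the third. Regions stand on the mm10 reference, which is the B6 genome. A lack of D2 signal in any assay therefore cannot be told apart from D2 sequence that is missing or does not map there.

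The reverse occurred at the promoter region of Gpatch1, a G-patch protein of the spliceosome (chr7:35319356-35320258). Accessibility was 4.48, 5.07 and 5.52 CPM in B6, 1.00, 0.751 and 0.860 CPM in D2 and 4.18, 4.86 and 4.38 CPM in the F1, while TRIM28 was 15.7 to 17.6 in B6 and 61.0 to 73.2 in D2 (1.96, SE 0.113, limma adjusted p = 6.74e-18). At chr9:110977161-110977620, in an intron of Lrrc2 and within 50 kb of the start of Tdgf1, the Nodal co-receptor, accessibility was 0.519 to 0.571 CPM in B6, 0.992 to 1.58 CPM in D2 and 1.05 to 1.57 CPM in the F1. TRIM28 there was 53.3 to 58.5 in B6 and 11.4 to 11.8 in D2 (-2.24, SE 0.114, adjusted p = 1.16e-19). At chr6:47651754-47652036, intergenic and open in D2 and F1, P300 (112 ± 5.50 against 18.6 ± 0.294, SD, n = 2) and TRIM28 (84.1 to 109 against 11.8 to 12.3) were both higher in D2.

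EpiLC libraries, which the choice of members did not use, held a matching region for 303 members (29.8%; all autosomal regions 40.1%). In EpiLCs the strains differed at 58.2% of all regions, 25.6% higher in D2 and 32.6% higher in B6. Of the 303, 250 passed in the ESC direction (110 of 133 open in D2 and 140 of 170 open in B6), 16 passed in the other, and the median difference towards the ESC-open strain was 0.98. The share of 82.5% stood beside 81.7% of intermediate and 77.9% of closed regions. Calls in the other direction stood at 5.28% of the members, 4.38% of intermediate and 6.86% of closed regions. The Skint4 intron had 4.63 to 5.84 in B6 EpiLCs and was at 0 in all 3 D2 lines (-5.73, SE 0.311, limma adjusted p = 4.19e-22). Chr4:12236715-12237325 had 4.78 to 5.50 in D2 EpiLCs and 0.0466 to 0.167 in B6 (4.71, SE 0.266, adjusted p = 1.88e-21).

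Few members stood at promoters of measured genes. The 68 promoter members lay within 1 kb of the starts of 74 genes, and 10 of these genes, at 9 members, passed the RNA filter. Over all 12700 genes tested, 40.6% differed between the strains, 18.8% higher in D2 and 21.8% higher in B6. Of the 10 genes 5 differed in the direction of accessibility and 0 in the other. The F1 differed from the mean of the parents at 3.29% of all genes and at 3 of the 10, Elobl, Gm13241 and 1700057H21Rik. The RNA filter counted the F1 libraries, and 1700057H21Rik passed it only through them, so its F1 call is no test.

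Elobl, an elongin B-like gene, had RNA signal of 22.3, 26.6 and 26.6 in B6, 4.81, 5.77 and 5.28 in D2 and 16.5, 15.9 and 16.8 in the F1 (D2 minus B6 -2.06, SE 0.104, limma adjusted p = 9.06e-08). All F1 lines lay between the parents and above their log2 mean by 0.44 (adjusted p = 0.0232). Its promoter region, chr11:88967393-88969702, had 59.4, 50.9 and 58.7 CPM in B6, 12.6, 13.7 and 14.2 CPM in D2 and 55.5, 54.3 and 52.5 CPM in the F1. The neighbouring start of Coil, which encodes the Cajal body protein coilin, shares this region, and its RNA was 67.8 ± 1.73 in B6, 67.3 ± 8.77 in D2 and 66.2 ± 2.80 in the F1 (SD, n = 3; adjusted p = 0.886 in limma).

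Gm13241, whose region chr4:146475846-146476349 lies in the chromosome 4 bin of 146 to 148 Mb, was named after its values were seen. Its RNA was 2.71, 2.41 and 1.94 in B6, 0.161, 0.179 and 0.124 in D2 and 2.56, 2.08 and 3.12 in the F1 (-1.53, SE 0.157, limma adjusted p = 2.37e-05). The F1 overlapped B6 and was above the parental mean by 0.86 (adjusted p = 0.00583). Transcripts of the Gm genes of this bin may share reads with copies, so the level of Gm13241 is uncertain.

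Pros1, which encodes protein S, an anticoagulant and receptor ligand, had 33.6 ± 3.57 in B6, 64.3 ± 5.64 in D2 and 41.9 ± 4.13 in the F1 (SD, n = 3; 0.92, limma adjusted p = 5.13e-05). Its promoter region was open in D2 and F1 (chr16:62855271-62856041), but the F1 RNA stood nearer to B6. Rab15, a Rab GTPase of endocytic recycling, had 11.1 ± 1.65 in B6, 18.1 ± 1.02 in D2 and 15.5 ± 1.77 in the F1 (0.67, adjusted p = 0.00136). Gpatch1 had 21.9 ± 0.409 in B6, 16.4 ± 0.932 in D2 and 17 ± 1.42 in the F1 (-0.40, adjusted p = 0.00475). Its mean F1 RNA stood nearer to D2, while its promoter region in the F1 lay nearer to B6. Against the parental log2 mean, F1 RNA did not pass limma's test at Pros1 (-0.15, adjusted p = 0.395) or Gpatch1 (-0.15, adjusted p = 0.298). Igsf8 (adjusted p = 0.142), Vps35l (0.683), Nrros (0.527) and 1700057H21Rik (0.286) did not pass between the parents.

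1700057H21Rik was higher in every F1 line (1.46, 0.943 and 1.21) than in any parental line (0.0281 to 0.542). The F1 exceeded the parental mean by 0.77 on the log2(value + 1) scale. Its means of 0.191 in B6 and 0.413 in D2 were below the RNA filter of 0.5, so the gene passed only through the F1. The F1 difference is therefore a description and no test. Its region, chr2:51437558-51438497, had 1.23, 1.83 and 1.59 CPM in B6, 3.71, 4.21 and 2.96 CPM in D2 and 4.67, 3.74 and 4.06 CPM in the F1.

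Few genes had a member near them, in the lists or in general. Within 50 kb of a start there was a member at 1 of 15 core pluripotency genes (Tdgf1), 1 of 19 naive genes (Stat3, which relays LIF), 0 of 17 formative and primed genes, 1 of 18 genes of KRAB silencing and H3K9 methylation (the histone deacetylase Hdac1) and 0 of 28 imprinted genes. Of all 20780 protein-coding autosomal genes 6.24% had one. Near Stat3, chr11:100953979-100954620 had 1.28, 1.62 and 1.1 CPM in B6, 2.60, 2.55 and 2.91 CPM in D2 and 2.61, 2.77 and 2.79 CPM in the F1. In the Hdac1 intron, chr4:129526738-129527227 had 2.40, 2.07 and 2.39 CPM in B6, 0.871, 1.38 and 0.948 CPM in D2 and 2.5, 2.30 and 2.25 CPM in the F1.

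The BXD libraries were not used to choose members. A line was counted on the open side of a region when its log2 value lay above the midpoint of the parental means. The median member had 18 of 33 lines on the open side (54.5%, quartiles 14 and 23), with 19 for members open in D2 and 17 for those open in B6. Intermediate regions had a median of 48.5% and closed regions 42.4%. In the median member 11 lines were at or above the lowest line of the open parent, 9 at or below the highest line of the other, and 12 between. Members chosen without DAC203 had a median of 51.5%.

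Most members were thus split among BXD lines rather than open in nearly all. At least 30 lines were on the open side in 30 members (2.95%; intermediate 0.934%) and 3 or fewer in 15 (1.47%; intermediate 1.15%). The 5 members at either end are named after their values were seen. All 33 lines were on the open side at chr6:47757957-47758302 and chr17:6455708-6456226, open in D2, and at chr13:66409562-66410269 and chr16:25522752-25523044, open in B6. The first of these had means of 0.576 CPM in B6 and 2.18 CPM in D2, and the BXD lines ran from 1.38 to 4.39 CPM with a median of 3.12 CPM. At chr13:102914851-102915550, in an intron of the kinase gene Mast4 and open in D2 (8.53 CPM against 4.06 CPM in B6), 0 of 33 lines were on that side, and they ran from 1 to 5.1 CPM with a median of 2.62 CPM.

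**Figure D5:**
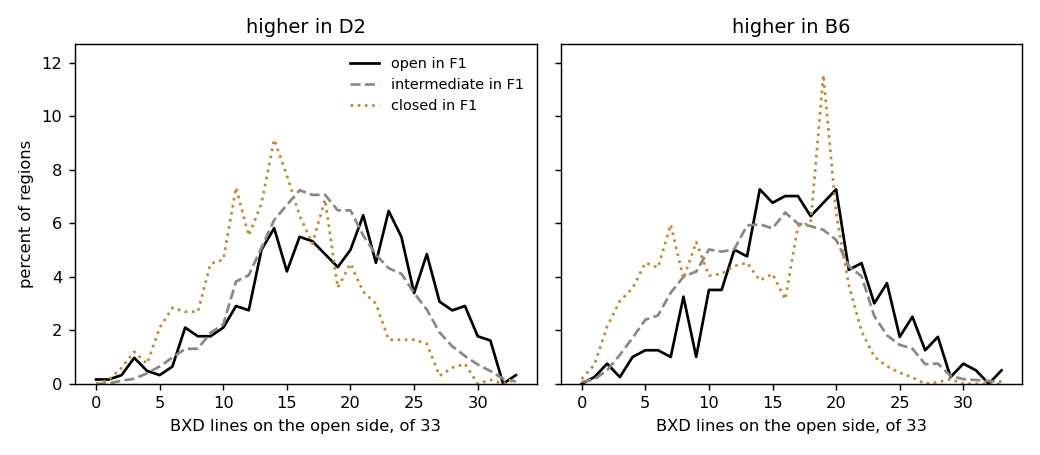
Share of regions (percent, vertical axis) by the number of BXD lines on the open side out of 33 (horizontal axis), for regions higher in D2 (left) and higher in B6 (right), by F1 class. Curves of members and intermediate regions are broad around the middle, with medians of 19 and 18 lines on the left and 17 and 15 on the right.

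In the median member 4 BXD lines lay above every line of the more open parent (8 where B6 was higher and 3 where D2 was). Intermediate regions had a median of 2. At the regions with the largest differences the BXD lines spanned the values of both parents and went beyond them. The Skint4 intron region ran from 0.117 to 28.9 CPM with a median of 0.299 CPM, and 13 lines were on the open side. At chr11:57552677-57554816 the range was 1.04 to 43.6 CPM, the median 2.28 CPM and 10 lines were open. At chr4:88771912-88772179 the range was 0.117 to 4.19 CPM and 24 lines were open. The median there, 2.77 CPM, was above every D2 line (1.73 to 1.91 CPM). Each highest BXD line was above all 6 parental lines.

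Single lines differed in the share of members on the open side, from 36.9% in BXD64 to 70.5% in BXD124. For members open in D2 the range was 32.1% in BXD154 to 81.1% in BXD87, and for those open in B6 it was 34.1% in BXD74 to 70.9% in BXD65. Other classes also varied between lines: intermediate regions ran from 31.4% to 71.1% where D2 was higher and from 24% to 69% where B6 was, and closed regions from 18.3% to 72.5% and from 6.55% to 75.1%.

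No genotypes of the BXD lines were used here. To describe variation shared with neighbours, each member was correlated over the 33 lines with the mean of intermediate regions 10 kb to 1 Mb away. Values were scaled from B6 to D2 and came from the same libraries, and the correlation was Spearman's rank correlation. What the lines share at neighbouring regions was not tested. The median correlation was 0.52, and it was 0.46 at 1 to 5 Mb, 0.33 at 5 to 20 Mb and 0.19 at 20 to 50 Mb. Members open in B6 had a median of 0.67 and those open in D2 0.38. The correlation was above 0.5 for 302 of 396 open in B6 (76.3%) and 227 of 616 open in D2 (36.9%), and below 0 for 8 and 80. With members chosen without DAC203 the medians were 0.61 and 0.41. Intermediate regions had 0.58 (0.63 where B6 was higher and 0.51 where D2 was) and closed regions 0.38 (0.39 and 0.36).

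Each member was also set against 493 windows of 5 Mb over the autosomes, and the window with the largest absolute correlation was taken. It lay within 10 Mb of the member on its chromosome for 281 of 399 members open in B6 (70.4%) and 179 of 619 open in D2 (28.9%); without DAC203 in the choice these shares were 54.7% and 32.4%. In a sample of 3000 intermediate regions they were 57.7% and 45.9%, and in closed regions 16.5% and 20.1%. An absolute correlation of 0.7 or more was reached by 373 members (36.6%), 218 open in B6 (174 of them local) and 155 open in D2 (64 local). That was a smaller share than the 54.6% of sampled intermediate and 54.8% of closed regions. The largest of 493 values is high by selection, so it is given as a description. Examples at the named members were local windows at chr11:57552677-57554816 (correlation 0.83) and chr13:66464715-66465140 (0.84), and a window on chromosome 13 for the 1700057H21Rik promoter (0.70), whose correlation with its own neighbourhood was -0.40. Members on different chromosomes shared little across lines, with a median pairwise correlation of 0.09 among those open in D2 and 0.06 among those open in B6. Sampled intermediate regions were alike, at 0.06 where D2 was higher and 0.09 where B6 was, and closed regions had 0.12 and 0.24.

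At members whose strain difference held in EpiLCs, the same BXD lines tended to be open in both states. At the 250 members whose EpiLC difference passed in the ESC direction, a median of 25 of 33 lines was on the same side of the midpoint in ESCs and EpiLCs (quartiles 20 and 31), and 81 members had 30 or more. Intermediate regions had a median of 25 and closed regions 26. The 16 members called in the other direction and the 37 not called were not counted here. At the Elobl promoter RNA and accessibility of the BXD lines were on the same side in 33 of 33 lines, at Gm13241 in 32, at Rab15 in 25, at Pros1 in 24 and at Gpatch1 in 12. Among the promoter genes whose RNA did not differ between the parents, the counts were 29 at 1700057H21Rik, 24 at Nrros and 21 at Igsf8. Coil, which shares the Elobl region, had 13, and Vps35l had 9.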

How the data were processed

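ESC accessibility was taken from a table of log2 CPM per region that the authors deposited, in which 0 reads stand at 0.117 CPM; whole reads were recovered from its steps. EpiLC ATAC and ChIP values are a signal per region, and RNA values a signal per gene, that the authors scaled per library and deposited. For EpiLC ATAC and TRIM28, 100% of values were whole reads within 0.01. For P300, POU5F1 and RNA reads were not recovered, so their depth is unknown. Bowtie 1.0.0, HISAT2 2.0.5, MACS 1.4.2 and mm10 stand in the submitters' processing notes without roles; whether strain variants entered the mapping, and whether region starts count from 0 or 1, was not given in the sources used here.

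Strains were compared with limma 3.58.1 (trend, robust) in R 4.3.3 over every region or gene, on log2(value + 0.1) for EpiLC ATAC and TRIM28 and log2(value + 1) for P300, POU5F1 and RNA, which understates changes of low values. Benjamini-Hochberg adjusted p under 0.05 made a call. RNA genes needed a mean of at least 0.5 over the B6, D2 and F1 libraries. edgeR 4.0.16 on recovered reads was an alternative, and the fits were tested on simulated data. Members met ChIP regions by any shared base and EpiLC regions by at least 50% of the shorter. Annotation was GENCODE M21 on GRCm38 (mm10). Region counts, overlaps and correlations used Python 3.11.15 with numpy 2.4.6, pandas 2.3.3 and scipy 1.17.1.

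Regions were named by rule: in each direction the 5 largest parental differences, the 4 largest with P300 and POU5F1 and the 4 largest at promoters of measured genes, then the 3 on each side of the threshold, the 3 largest TRIM28 differences and those within 50 kb of listed genes. Members, lists and rules were chosen with earlier results of these data known. Other ATAC, RNA, input and single-cell data were not used here.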

Additional observations from a re-analysis of the deposited data

Results flagged for a closer look

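At 16 of the 303 members tested (5.28%) the strain difference in EpiLCs passed limma's test against the direction of accessibility in ESCs. Such calls stood at 4.38% of intermediate and 6.86% of closed regions, so they were not particular to members. In 14 of the 16 the EpiLC lines of the strains did not overlap, and 8 of the 16 were higher in D2 in ESCs. The difference between the states was not tested, and levels of the states come from separately normalized tables. At chr13:66409562-66410269, in an intron of Gm26754, ESC means were 6.95 CPM in B6, 2.77 CPM in D2 and 6.63 CPM in the F1, while EpiLC means were 2.21 in B6 and 6.24 in D2 (log2 difference 1.46, SE 0.123, adjusted p = 7.03e-15). At chr19:22720683-22722482, in an intron of the cation channel gene Trpm3, ESC means were 5.53, 1.73 and 9 CPM in B6, D2 and the F1, and EpiLC means were 3.48 in B6 and 6.74 in D2 (0.94, SE 0.111, adjusted p = 2.95e-10). At chr17:25292473-25292931, near Prss34, ESC means were 1.12, 2.28 and 2.37 CPM, and EpiLC means were 4.18 in B6 and 2.40 in D2 (-0.77, SE 0.131, adjusted p = 1.49e-06). At chr13:102914851-102915550, the Mast4 intron at which 0 of 33 BXD lines were open, EpiLC means were 16 in B6 and 11.3 in D2 (-0.50, SE 0.0737, adjusted p = 9.26e-08).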

How the results depend on the processing

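The number of members followed the definition: 1929 at a position of 0.75, 533 at 0.95, 1758 with the position on the log2 scale and 639 with a minimum level of 2 CPM. Leaving out single lines gave 993 to 1308 members, of which 757 to 900 were among the 1018, and a D2 share of 50.8% to 64.5%; the D2 share was 56.6% on the log2 scale and 57.4% with the minimum of 2 CPM. Against ChIP regions at or above the median level, 8.15% of members had P300 and 9.43% POU5F1. Leaving out the EpiLC regions with the lowest levels left 179 members tested and 138 called, fewer because fewer were tested. P300 calls numbered 49 with limma without trend and robust and 44 to 101 without single lines, and POU5F1 calls 62 to 101; the cause was not tested. A promoter window of 2.5 kb gave 15 RNA calls among 32 pairs.

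Replicate numbers did not pair the lines (correlations -0.115 to -0.015 in EpiLCs, 0.103 for P300, -0.0071 to 0.0441 for TRIM28, -0.389 to -0.0725 for RNA). With a replicate block the calls were 250 in EpiLCs, 84 for P300, 167 for TRIM28 and 5 for RNA. No paired analysis was possible for POU5F1 because both D2 libraries carry the same number. Over 60 tests of named regions and genes, 633 alternatives left 614 on the same side of the threshold, 19 no longer passing and 0 reversed; at chr4:146475846-146476349 the POU5F1 difference of -0.71 did not pass without D55 (-0.50) and at the Pros1 promoter the TRIM28 difference of 0.42 (adjusted p = 0.0375) passed in none of the 6 settings that lost it, quantile normalization and each of 5 lines left out. Selection without DAC203, applied to calls, overlaps and BXD shares, was added after the data were seen. Members with few reads have less certain positions, and 2 lines a strain limit P300 and POU5F1.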
